A study of Homo sapiens with 10 samples.

Results

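MDSL cells, a human cell line derived from myelodysplastic syndrome, were compared after exposure to OR21 and without it, on 1 array each, which are 2 of the 10 arrays of the series. The compound, OR-2100, is named in the title of the series as a hypomethylating agent that cytidine deaminase degrades poorly. The treated cells received 100 nM OR21 for 96 h, and the other cells, labelled Control, belong to the same 96 h period, with no vehicle named in the labels. Both cultures grew in serum-containing medium with added interleukin-3. MDSL is a single line, and whether its arrays are separate cultures is not stated. The other lines with both conditions were SKM1, also from myelodysplastic syndrome and also treated at 100 nM, and HL60 (acute myeloid leukaemia) and K562 (chronic myeloid leukaemia), both treated at 500 nM, each with its own Control array.

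Cytidine-analogue hypomethylating agents are built into newly made DNA, where they trap DNA methyltransferases, so that methyl marks on CpG sites are diluted as cells divide. In myeloid cells such drugs are known for switching on silent germ cell genes and interferon-stimulated genes, for slowing division and for promoting maturation. Interleukin-3 supports the survival of myeloid progenitors and of mast cells and basophils, and progenitors of the erythroid and megakaryocytic lineages share the transcription factors GATA1, GATA2 and GFI1B.

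The values described are log2 intensities of 17687 named genes, 1 probe set each, and a difference is OR21-treated minus Control on that scale, so that 1 unit is a doubling. With 1 array per condition there is no replicate error, no p-value and no replicate check for any MDSL difference, and counts past 2-fold describe these arrays. The median over genes was 6.90 log2 on the treated array and 6.86 on the Control array. A level was taken as measurable where it lay above the 95th percentile of the 612 negative control probe sets of its array, called the floor here, which was 8.04 log2 on the treated and 8.37 on the Control array, and 10428 genes lay at or under the floor on both. Where only 1 of the arrays was above it, the difference is limited by background, and an "at least" fold is given that counts from the floor. The labelled origin was checked against markers of blood cells. All 10 measured of 12 listed markers were above the floor on both arrays, among them the pan-leukocyte gene PTPRC at 14.85 log2 treated and 13.89 Control, CD34 at 13.71 and 14.68, and the interleukin-3 receptor chains IL3RA at 11.73 and 12.01 and CSF2RB at 14.86 and 15.49.

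In OR21-treated MDSL 1170 genes (6.62%) exceeded the Control by 2-fold or more, and 864 (4.88%) lay below it by as much. These are the shares of all genes beside which each list count below is to be read. The treated array was above the floor for 810 of the higher genes, and the Control array for 584 of the lower ones. The higher side reached farther than the lower one. At least 8-fold higher were 112 genes against 8 lower, and 44 genes were at least 16-fold higher against 0 lower. Counted from the floor where one array was under it, 17 genes remained past 16-fold on the higher side and 0 on the lower. The median difference over all genes was -0.04 log2, with the 5th percentile at -0.99 and the 95th at 1.17. The 2197 positive control probe sets had a median of 12.39 log2 on the treated and 12.78 on the Control array, and scaling the arrays to them moved the median of all genes up by 0.39, with 2417 genes higher and 367 lower, so that 86.8% of the genes past 2-fold were higher, against 57.5% on the deposited scale. These probe sets were also dimmer on the treated than on the Control array in SKM1 (12.73 and 13.01), HL60 (12.81 and 13.23) and K562 (12.99 and 13.28). The deposited scale is used below, and which scale is right was not tested. On it the housekeeping list had a median of -0.01, with members from -0.46 to 1.02 (ACTB).

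**Figure D1:**
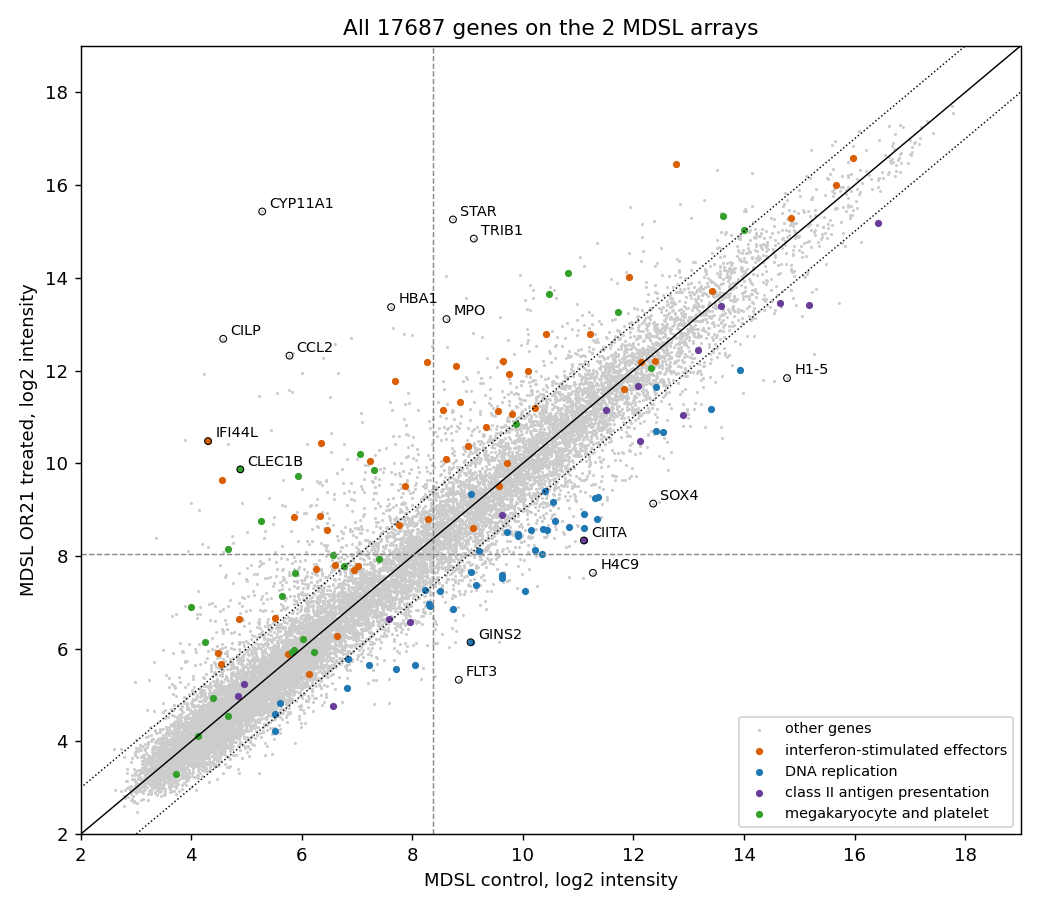
Level of each of 17687 genes on the OR21-treated MDSL array (vertical, log2 intensity) against the Control array (horizontal, log2 intensity), with 4 gene lists in colour. The solid line marks equal levels, the dotted lines 2-fold, and the dashed lines the floor of each array (8.04 treated, 8.37 Control); CYP11A1 and CILP lie farthest above the line, and no gene lies as far below it.

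The largest difference was that of CYP11A1 on chromosome 15, the mitochondrial enzyme that cleaves the cholesterol side chain and so begins steroid synthesis. It stood at 15.43 log2 in treated and 5.29 in Control MDSL, at least 134-fold higher from the floor. In SKM1 it stood at 11.15 treated and 5.37 Control, in HL60 at 5.24 and 5.69, and in K562 at 6.49 and 5.33. All 4 Control arrays were under the floor, and treated MDSL was the highest of the 8 arrays. STAR, which carries cholesterol to that enzyme, was measurable without the drug and stood at 15.26 treated and 8.73 Control, 92.0-fold higher. Its levels were 12.51 and 9.08 in treated and Control SKM1, 8.38 and 8.81 in HL60, and 12.82 and 11.84 in K562, so that it was higher with OR21 in 3 lines and differed by -0.43 log2 in HL60. SCARB1, a receptor that takes up cholesterol from lipoproteins, was higher by 2.61 log2 in MDSL and lower in the other lines, at -1.04 in SKM1, -0.91 in HL60 and -1.61 in K562.

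Most of the steroid synthesis list could not be read, with 13 of 21 measured genes under the floor on both arrays. Of the 21, from 26 listed, 5 were at least 2-fold higher (23.8%, against 6.62% of all genes) and 0 lower, and the list median was 0.04. The other members past 2-fold, the steroidogenic transcription factor NR5A1 (6.91 log2 treated and 4.43 Control) and the aromatase CYP19A1, were under the floor on both arrays. STARD4, a cholesterol transfer protein, differed by 0.85 and HSD17B4 by 0.08. Among 14 measured markers of adrenal and gonadal cells, AMHR2, a receptor for anti-Müllerian hormone, was at 9.14 log2 treated and 4.00 Control, at least 1.71-fold higher, and the other 13 were under the floor on both arrays.

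Several other genes were among the 20 largest differences, taken over genes that reached the array median in at least 1 condition. CILP, a cartilage matrix protein, stood at 12.68 log2 treated and 4.58 Control, at least 20.0-fold higher. In treated and Control cells of the other lines it lay at 4.92 and 4.73 (SKM1), 4.33 and 4.45 (HL60) and 5.45 and 5.42 (K562), all under the floor. C4BPA, a chain of a plasma inhibitor of complement, was at least 4.43-fold higher (10.51 treated, 3.89 Control). The collagen COL14A1 was at least 8.46-fold higher, the neuropeptide Y receptor NPY1R at least 8.90-fold and the vessel-remodelling factor ANGPT2 at least 14.9-fold. TGM5, a transglutaminase, was at least 20.2-fold higher, and the calcium channel subunit CACNA2D4 at least 4.12-fold. The pepsinogen genes PGA5 and PGA3, close copies that cannot be taken as separate, were at least 16.03-fold and 9.34-fold higher. TRIB1, a pseudokinase, and FILIP1L were measurable on both arrays, and TRIB1 stood at 14.85 treated and 9.11 Control (53.2-fold) and FILIP1L at 14.05 and 8.61 (43.2-fold). Of the 20 largest positive differences, 17 had the Control under the floor, 14 were also at least 2-fold higher in SKM1, 7 in HL60 and 7 in K562. KIAA0040 (at least 11.9-fold), LINC01140 (at least 11.9-fold) and the dynamin DNM3 (at least 9.03-fold) complete that set with genes named in the groups below.

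**Figure D2:**
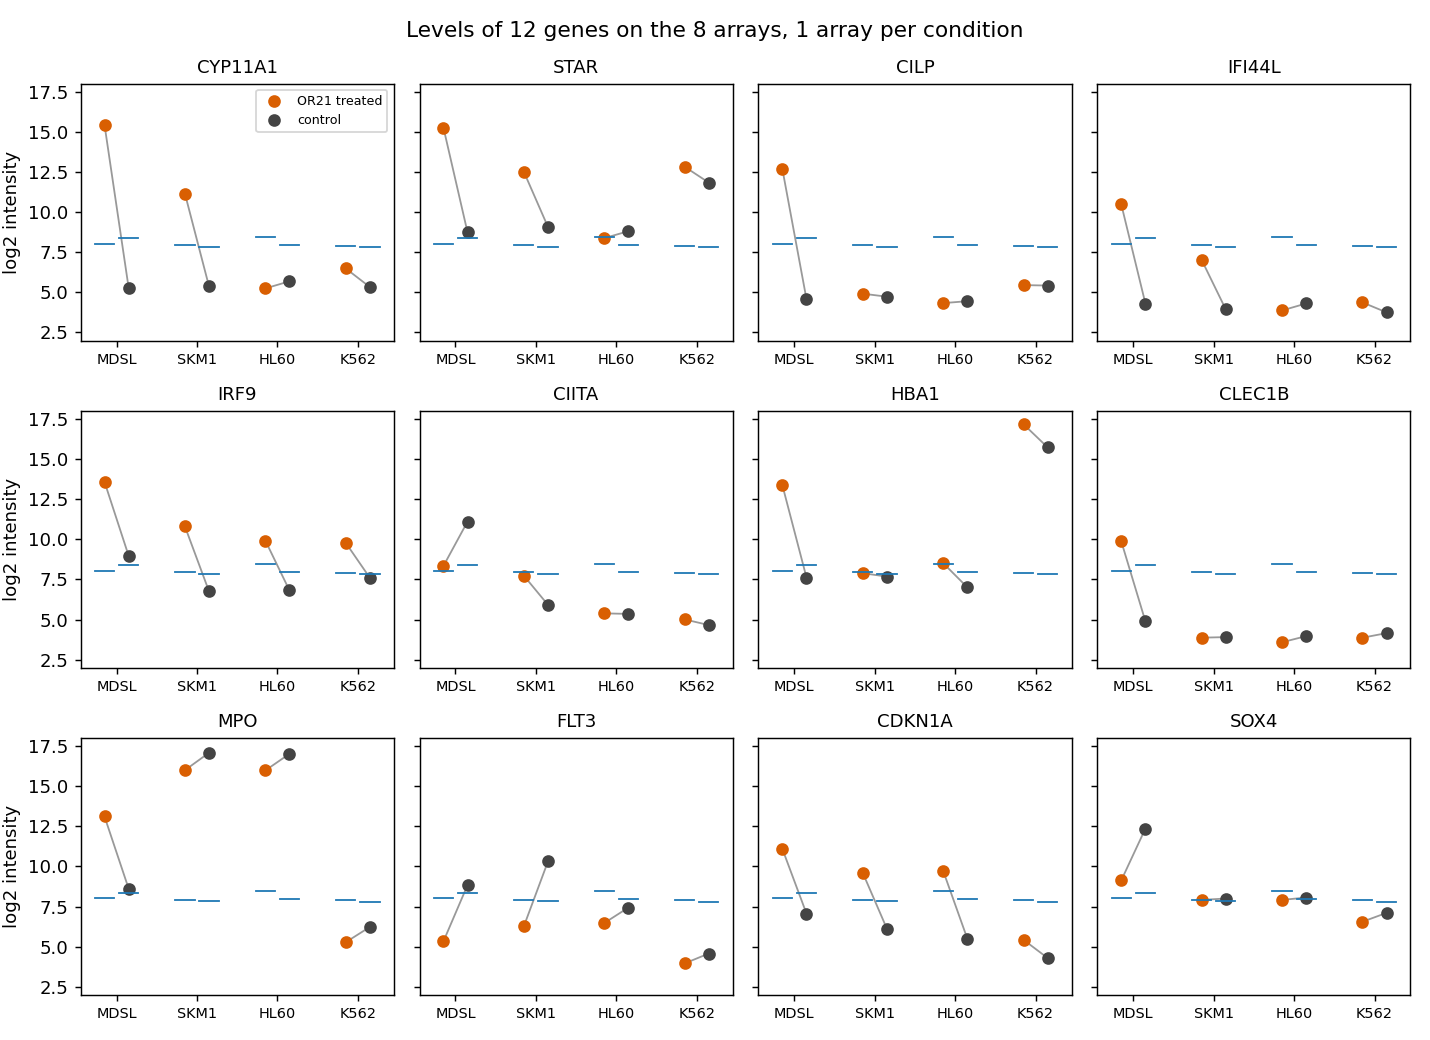
Level of 12 genes (vertical, log2 intensity) on the OR21-treated (orange, left of each pair) and Control array (grey, right) of each line, 1 array per point, with the floor of each array as a blue dash. CILP, CLEC1B and MPO were higher in treated than in Control MDSL, with no such step in the other lines, while IRF9 was higher in all 4 lines and CIITA was lower in treated MDSL.

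Interferon-stimulated genes encode antiviral proteins and are switched on when interferon binds its receptor. Of 49 measured effectors of this kind, 31 were at least 2-fold higher in treated MDSL (63.3%, against 6.62% of all genes), 0 were at least 2-fold lower, and the list median was 1.45 log2. The treated array was above the floor for 25 of the 31, and 11 of the 49 were under it on both arrays. IFI44L stood at 10.48 log2 treated and 4.30 Control, at least 4.33-fold higher, and the RNA-binding IFIT1 at 9.63 and 4.55, at least 2.40-fold. IFI44L was under the floor on all other arrays, at 7.02 in treated and 3.94 in Control SKM1, 3.87 and 4.31 in treated and Control HL60 and 4.37 and 3.75 in K562. IFIT3 was at least 10.6-fold higher, IFI44 at least 14.1-fold and IFI27 at least 4.24-fold. The mitochondrial protein IFI6 was measurable without the drug, and stood at 16.45 treated and 12.77 Control, 12.7-fold higher. The list medians were 1.40 in SKM1, 0.85 in HL60 and 0.54 in K562.

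Most genes of interferon signalling itself could not be read. Among 26 measured interferon ligands, receptors and signalling genes 4 passed 2-fold upward (15.4%, against 6.62% of all genes) and 0 downward. The list median was 0.01, but 14 of the 26 were under the floor on both arrays, so it does not show them to be level. The transcription factor IRF9 was the largest measurable on both arrays, at 13.57 log2 treated and 8.97 Control (24.3-fold). In the other lines treated and Control IRF9 stood at 10.80 and 6.75 in SKM1, 9.92 and 6.82 in HL60, and 9.78 and 7.60 in K562, higher with OR21 in each. USP18, which removes ISG15 and dampens interferon receptor signalling, was at least 21.4-fold higher (12.78 treated, 7.84 Control). The receptor chain IFNAR2 was higher by 1.28 log2, the fourth gene past 2-fold, IRF7, was under the floor on both arrays, and IRF1 differed by -0.92. Of 20 nucleic acid sensing genes 4 were at least 2-fold higher (20.0%): the double-stranded RNA sensor IFIH1 (1.52 log2), DHX58 (1.17), the adaptor MAVS (1.17) and the adaptor MYD88 (1.07). The DNA sensor CGAS was under the floor on both arrays, and the list median was -0.04. RIGI differed by -0.38 and TBK1, the kinase that acts on IRF3, by 0.77.

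The promoters of the interferon-stimulated genes are shown because these genes moved together. Genes of this class are known for the response element searched here, so its share describes the list and is no separate result. The motif searched was GAAA, any 2 bases, then GAAA again, on either strand, the core of the interferon-stimulated response element, in RefSeq windows (GRCh38.p14) from 250 bases before to 50 after each gene's start. It was present in 27 of the 41 effectors with a window (65.9%), in 18 of 27 of those at least 2-fold higher (66.7%), and in 443 of 14250 windows of all genes (3.11%). The share was therefore alike in effectors past 2-fold and in the whole list. Overlapping matches were counted separately. The windows of 4 effectors follow, 5′ to 3′ on the gene's strand, with matches in capitals. They lie at chr1:78620198-78620497 (+ strand), chr1:27672143-27672442 (- strand), chr10:89392373-89392672 (+ strand) and chr10:89327747-89328046 (+ strand).
IFI44L: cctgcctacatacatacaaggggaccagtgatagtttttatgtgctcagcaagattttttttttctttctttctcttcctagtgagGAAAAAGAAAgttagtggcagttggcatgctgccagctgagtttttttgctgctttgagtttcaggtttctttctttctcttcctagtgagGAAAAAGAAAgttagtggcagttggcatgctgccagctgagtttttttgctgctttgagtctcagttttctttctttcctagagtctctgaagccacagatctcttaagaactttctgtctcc
IFI6: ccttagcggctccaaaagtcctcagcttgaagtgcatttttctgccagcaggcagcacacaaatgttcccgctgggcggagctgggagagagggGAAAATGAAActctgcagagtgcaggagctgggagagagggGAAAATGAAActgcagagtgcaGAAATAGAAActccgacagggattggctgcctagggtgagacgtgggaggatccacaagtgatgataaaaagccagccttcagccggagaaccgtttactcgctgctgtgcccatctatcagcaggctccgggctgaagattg
IFIT1: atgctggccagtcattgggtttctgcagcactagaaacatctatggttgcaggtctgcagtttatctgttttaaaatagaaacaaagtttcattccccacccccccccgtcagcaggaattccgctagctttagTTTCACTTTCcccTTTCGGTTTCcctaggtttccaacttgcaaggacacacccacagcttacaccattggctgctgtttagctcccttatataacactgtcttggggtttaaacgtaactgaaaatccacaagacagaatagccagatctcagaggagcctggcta
IFIT3: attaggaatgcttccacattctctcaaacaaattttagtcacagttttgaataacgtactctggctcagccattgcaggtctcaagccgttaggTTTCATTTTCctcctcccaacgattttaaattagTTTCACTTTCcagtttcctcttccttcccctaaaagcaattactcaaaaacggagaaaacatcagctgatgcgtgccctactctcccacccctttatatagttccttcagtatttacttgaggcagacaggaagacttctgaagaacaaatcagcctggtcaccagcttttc
IFI44L has the same 10 bases at -164 and -73 from the start, with no CpG in its window, and IFI6, with 9 CpG, has 3 matches. A match is a description of these letters and not of binding.

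Antigen presentation genes split. Class I genes were near level, with 1 of 18 at least 2-fold higher, 0 lower and a median of -0.03. The peptide transporter TAP1, the 1 gene past 2-fold, stood at 8.31 log2 treated and 7.27 Control, with no bound above 1 from the floor. The immunoproteasome subunit PSMB9 differed by 0.73 log2 and the light chain B2M by 0.64. Class II genes, which present peptides to helper T cells, were lower, with 8 of 16 at least 2-fold lower (50.0%, against 4.88% of all genes), 0 higher and a median of -1.06. The Control array was above the floor for 6 of the 8, and 5 of the 16 were under it on both arrays. Their master regulator CIITA stood at 8.34 log2 treated and 11.10 Control, 6.81-fold lower. In the other lines CIITA was under the floor on every array, at 7.73 treated and 5.91 Control in SKM1, 5.38 and 5.35 in HL60, and 5.01 and 4.65 in K562, so Control MDSL was the highest of the 8 arrays. HLA-DRA was at 15.19 treated and 16.42 Control, HLA-DPB1 at 13.40 and 15.17, HLA-DPA1 at 10.47 and 12.13, and the invariant chain CD74 at 13.46 and 14.64. HLA-DRB1, which has close copies, was at 11.05 and 12.90. In SKM1 at the same dose the list median was 1.39, and 7 of the 16 genes were at least 2-fold lower in MDSL and at least 2-fold higher in SKM1, as were 16 of the 864 lower genes in all (31 genes of 17687 were past 2-fold in opposite directions in these lines). Of the 7, CIITA was under the floor on both SKM1 arrays and HLA-DQA1 on both MDSL arrays. In SKM1, CD74 differed by 2.08 and HLA-DPA1 by 1.98. With 1 array per condition in either line this opposition was not tested. The medians were 0.30 in HL60 and -0.08 in K562.

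Genes of the red cell lineage were higher in part. Globin genes had a median of 2.48 log2, with 6 of 9 at least 2-fold higher (66.7%) and 0 lower. However, 5 were under the floor on both arrays, the middle one, HBZ, among them, and 4 of the 6 had the treated array above it. In K562 6 of the 9 also passed 2-fold upward, with a median of 1.67. The alpha globins HBA1 and HBA2, near-identical copies whose probe sets cannot be taken as separate, stood at 13.37 and 12.57 log2 treated and 7.62 and 6.60 Control, at least 32.1-fold and 18.4-fold higher. Beta globin HBB was at least 7.50-fold higher (11.27 treated, 7.87 Control) and delta globin HBD at least 2.42-fold. HBA1 was at 17.16 in treated and 15.72 in Control K562, above treated MDSL, at 7.89 and 7.67 in SKM1, and at 8.51 and 7.01 in HL60. Haem synthesis and red cell membrane genes were less uniform, with 5 of 26 at least 2-fold higher (19.2%), 0 lower and a median of 0.32. Carbonic anhydrase CA1 was at least 11.9-fold higher (11.94 treated, 6.66 Control) and the membrane anchor ANK1 at least 2.03-fold. The blood group protein KEL was at least 1.65-fold higher, whereas ferrochelatase FECH was at least 1.45-fold higher and EPB41 differed by 0.86 log2. The treated array was above the floor for 3 of the 5. Letters AGATAA, on either strand, are part of the site that GATA factors bind. They were in 8 of 19 windows of this list (42.1%) and 7.6% of all windows. Among genes at least 2-fold higher the share was 8.95%, and in megakaryocyte and platelet genes 3 of 21 (14.3%). Lists of other kinds had 7 of 41 (17.1%, interferon-stimulated effectors), 4 of 16 (steroid synthesis) and 0 of 37 (DNA replication). The lists were chosen by lineage or function, and a link of these letters to the response was not tested.

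Megakaryocyte and platelet genes were higher as a group. Of 28 measured, 17 were at least 2-fold higher (60.7%), 0 lower, and the median was 1.47, against 0.14 in SKM1, 0.30 in HL60 and 0.25 in K562. Part of the list was also at least 2-fold higher elsewhere, with 9 of 28 in SKM1, 7 in HL60 and 3 in K562. Over all genes those shares were 7.1%, 10.2% and 5.05%, in the same order. In MDSL the platelet lectin receptor CLEC1B stood at 9.87 log2 treated and 4.89 Control, at least 2.84-fold higher. In the other lines treated and Control CLEC1B lay at 3.87 and 3.90 (SKM1), 3.59 and 3.97 (HL60), and 3.87 and 4.15 (K562), under the floor throughout. The von Willebrand receptor chain GP1BA was at least 2.55-fold higher and the integrin ITGB3 at least 1.30-fold, and platelet tubulin TUBB1 was at 8.15 treated and 4.67 Control, with no bound above 1. The secretory GTPase RAB27B was measurable on both arrays, at 14.10 treated and 10.82 Control (9.73-fold). In the list 15 of 28 genes were under the floor on both arrays, and 11 of the 17 had the treated array above it. In bulk RNA a larger share of cells with a gene on and a higher level per cell cannot be told apart.

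Several transcription factors of these lineages were also higher. GFI1B, a repressor needed for red cells and platelets, stood at 13.65 log2 treated and 10.46 Control (9.08-fold). GATA1 was at 12.88 and 10.99 (3.72-fold), GATA2 at 13.09 and 11.60 (2.80-fold) and MEF2C at 13.27 and 11.72 (2.93-fold). BCL11A, a repressor of fetal globin, was at 8.00 treated and 10.23 Control, at least 4.56-fold lower, and the lymphoid factor IKZF1 differed by -1.32 log2. Of 31 lineage factors 9 passed 2-fold upward (29.0%, against 6.62% of all genes), 5 of them with the treated array above the floor. Downward 3 passed (9.68%, against 4.88%), and the median was 0.26.

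Mast cell, basophil and eosinophil genes had 11 of 26 at least 2-fold higher (42.3%), 1 lower and a median of 0.64. The treated array was above the floor for 7 of the 11, and 9 of the 26 were under it on both arrays. The IgE receptor alpha chain FCER1A, high without the drug, stood at 15.68 log2 treated and 13.27 Control, its gamma chain FCER1G at 13.27 and 11.19, and the lectin SIGLEC6 at 12.53 and 10.23. The tryptase TPSB2, with close copies, was at least 2.45-fold higher. The 1 lower member was KIT, the stem cell factor receptor that mast cells also need, at 10.55 treated and 12.54 Control. In SKM1 15 of the 26 were at least 2-fold higher, with a median of 1.09, above that of MDSL. HL60 had 8 higher (median 0.47) and K562 3 (median 0.30).

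Neutrophil granule genes did not move together, with 5 of 25 at least 2-fold higher (20.0%), 1 lower (4.0%) and a median of 0.39. The treated array was above the floor for 2 of the 5, and 13 of 25 were under it on both. Myeloperoxidase MPO stood apart, at 13.11 log2 treated and 8.62 Control (22.5-fold higher). It was far brighter in SKM1 (15.99 treated, 17.08 Control) and HL60 (15.97 and 17.01), lower with OR21 in both, and under the floor in K562 (5.28 and 6.23). Treated MDSL thus remained below all 4 arrays of SKM1 and HL60. The granule proteases PRSS57 and AZU1 differed by -1.16 and -0.56, and the adhesion protein CEACAM6 by 1.94.

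Monocyte and macrophage genes were higher in 16 of 37 at the 2-fold mark (43.2%), with 0 lower and a median of 0.84, smaller than the 1.79 of SKM1 and the 2.82 of HL60. Treated levels were above the floor for 13 of the 16, and 17 of the 37 were under it on both arrays. The phagocyte oxidase subunits NCF1 and CYBB stood at 13.16 and 13.32 log2 treated and 9.59 and 10.07 Control. The calcium-binding S100A8 was at 14.74 treated and 11.34 Control and its partner S100A9 at 11.77 and 8.92. The formyl peptide receptors FPR1 and FPR2 were at least 3.80-fold and 2.05-fold higher. CD14 differed by -0.07, under the floor on both arrays. NCF1 has near-identical pseudogene copies, which its probe set may share.

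Stem and progenitor genes were lower in 22 of 29 members, where 9425 of all 17687 genes were lower. At least 2-fold lower were 7 (24.1%, against 4.88% of all genes) and 3 were at least 2-fold higher (10.3%, against 6.62%), with a median of -0.52. The Control was above the floor for 6 of the 7. Under the floor on both arrays were 12 of the 29, for which the direction cannot be read. The receptor tyrosine kinase FLT3 stood at 5.33 log2 treated and 8.84 Control, which from the floor is at least 1.74-fold lower. FLT3 was also lower with OR21 in SKM1 (6.27 treated, 10.31 Control), and under the floor on both arrays in HL60 (6.47 and 7.44) and K562 (3.96 and 4.58). The transcription factor SOX4 was at 9.13 treated and 12.36 Control, 9.35-fold lower, and NREP at 9.16 and 12.47, 9.88-fold lower. SOX4 lay at 7.91 and 8.00 in treated and Control SKM1, 7.91 and 8.06 in HL60, and 6.55 and 7.11 in K562, so the step was large in MDSL, where the Control level was the highest of the 4. CD34 differed by -0.98 and MYCN was at least 2.40-fold lower.

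Cytokine receptors went both ways. Of 32 genes of the receptor and interleukin-3 signalling list, 9 were at least 2-fold higher (28.1%, against 6.62% of all genes). At least 2-fold lower were 5 (15.6%, against 4.88%), and the median was 0.29. The interleukin-3 receptor chains IL3RA (-0.27 log2) and CSF2RB (-0.64) were within 2-fold. PIM2, a survival kinase that cytokine signals switch on, stood at 13.73 treated and 10.56 Control (9.00-fold). The shared receptor chain IL6ST was at least 4.66-fold higher, the interleukin-2 receptor chain IL2RA at least 4.13-fold and IL7R at least 1.51-fold. FLT3 and KIT were the lower members with the largest differences.

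The lower genes were led by those of dividing cells. Of 43 DNA replication genes, 37 were at least 2-fold lower (86.0%, against 4.88% of all genes), 0 were higher and the median was -1.77, the lowest of the 44 lists. The Control array was above the floor for 29 of the 37, and 11 of the 43 were under it on both arrays. GINS2 and GINS1, subunits of the replicative helicase, stood at 6.14 and 8.61 log2 treated and 9.05 and 11.10 Control, with GINS2 at least 2.01-fold lower. CDC45, a further component of that helicase, was at least 3.97-fold lower, the helicase subunits MCM3 and MCM4 5.85-fold and 4.75-fold lower, and the polymerase subunit POLD3 at 8.04 treated and 10.35 Control. The list medians were -1.37 in SKM1, -1.10 in HL60 and -0.06 in K562. Of 35 mitosis genes 29 were at least 2-fold lower (82.9%), 0 higher, with a median of -1.59, against -0.82 in SKM1, 0.24 in HL60 and 0.13 in K562. Among those 29, 23 had the Control above the floor, and 6 of the 35 were under it on both arrays. CDC20, which activates the anaphase-promoting complex, stood at 9.72 treated and 12.05 Control, cyclin CCNA2 at 9.64 and 11.67, and the checkpoint kinase TTK at 9.45 and 11.45.

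Promoter letters differed between these lists. The E2F-type sequences TTTCCCGC or TTTGGCGC, on either strand, were in 15 of 37 windows of DNA replication genes (40.5%), 1 of 29 of mitosis genes (3.45%) and 3.07% of all windows. They were in 50 of 723 windows of genes at least 2-fold lower (6.92%) and 33 of 939 of genes at least 2-fold higher (3.51%). Among genes above the floor in the Control the share was 4.48%, and 7.97% in those of them at least 2-fold lower. Genes above the floor on both arrays and at least 2-fold higher had 4.41%. The windows of MCM3 (chr6:52284693-52284992 (- strand)) and GINS2 (chr16:85688905-85689204 (- strand)) are shown as examples from the replication list, with the match in capitals.
MCM3: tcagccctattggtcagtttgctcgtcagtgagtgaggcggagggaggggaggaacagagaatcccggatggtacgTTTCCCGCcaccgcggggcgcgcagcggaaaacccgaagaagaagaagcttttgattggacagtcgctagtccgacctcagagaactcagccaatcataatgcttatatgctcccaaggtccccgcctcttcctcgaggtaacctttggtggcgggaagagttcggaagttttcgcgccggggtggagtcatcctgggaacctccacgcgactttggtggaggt
GINS2: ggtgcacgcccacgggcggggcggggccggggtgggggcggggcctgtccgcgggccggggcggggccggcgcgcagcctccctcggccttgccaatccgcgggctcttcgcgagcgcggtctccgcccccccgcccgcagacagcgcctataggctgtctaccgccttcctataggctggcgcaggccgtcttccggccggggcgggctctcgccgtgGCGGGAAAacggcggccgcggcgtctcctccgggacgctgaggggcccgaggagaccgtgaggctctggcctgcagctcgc
MCM3 holds 22 CpG and GINS2 43 in these 300 bases, against a median of 22 over all windows.

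Replication-dependent histone genes, which are transcribed in S phase, were at least 2-fold lower in 32 of 55 members (58.2%), with 0 higher and a median of -1.30. Control levels were above the floor for 27 of the 32, and 13 of the 55 were under it on both arrays. H4C9 stood at 7.64 log2 treated and 11.27 Control, at least 9.35-fold lower, and H3C8 at 7.53 and 11.08, at least 8.22-fold. The linker histone H1-5 was 7.68-fold lower, H2AC8 8.25-fold, H2BC14 7.49-fold and H3C11 7.02-fold. Histone copies are alike in sequence, so single members are uncertain. H2BC14 differed by 6.55 log2 in HL60 and 10.33 in K562, and the list medians were -1.0 in SKM1, 0.20 in HL60 and -0.32 in K562. Of the 20 largest negative differences, 6 were listed histones, 11 had an array under the floor, and 12 were also at least 2-fold lower in SKM1, 6 in HL60 and 3 in K562. Among the others, ITM2A stood at 11.78 log2 treated and 14.55 Control (6.82-fold lower), the small GTPase RAB7B at 9.85 and 12.63 (6.89-fold lower), and the nuclear envelope protein NRM was at least 4.65-fold lower. Chromosome 6, which carries the main histone cluster, had 8.32% of its 926 genes at least 2-fold lower, the highest share of 23 chromosomes, and 5.56% of 881 without the listed histones. The shares of higher genes lay between 4.8% on chromosome 18 and 8.44% on chromosome 1.

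Inhibitors of the cell cycle were higher in part. CDKN1A, which encodes p21, stood at 11.09 log2 treated and 7.06 Control, at least 6.62-fold higher. In the other lines treated and Control CDKN1A lay at 9.60 and 6.12 (SKM1), 9.72 and 5.51 (HL60), and 5.43 and 4.29 (K562), higher with OR21 in SKM1 and HL60 and under the floor on both arrays in K562. CDKN1C, which encodes p57, was at least 3.10-fold higher and cyclin CCND1 at least 2.86-fold, while the G1 kinase CDK4 differed by -1.73 log2, cyclin CCNE2 by -1.69 and the repressor E2F8 was at least 2.03-fold lower. CDKN2B differed by -0.20 under the floor. Of 29 p53 targets 7 passed 2-fold upward (24.1%, against 6.62% of all genes). Downward 1 passed (TRIAP1, under the floor), and the median was 0.24. The p53 ligase MDM2 differed by 1.24 log2, TP53INP1 by 1.31 and ZMAT3 by 1.13. In the BCL2 family 4 of 20 genes were at least 2-fold higher (20.0%), 2 of the 4 above the floor when treated. At least 2-fold lower was 1 (5.0%), and the median was 0.34. The anti-apoptotic BCL2 differed by -1.47 log2, and the anti-apoptotic BCL2A1 and BCL2L1 were higher by 1.40 and 1.36.

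Nucleotide synthesis genes had 11 of 34 at least 2-fold lower (32.4%) and 3 higher, with a median of -0.73. The purine enzyme PFAS stood at 9.12 log2 treated and 11.44 Control, thymidylate synthase TYMS at 10.81 and 13.02, and the dUTPase DUT at 11.12 and 12.97. DCK, the kinase that activates deoxycytidine analogues, was at 11.40 and 10.73 (0.67). Cytidine deaminase CDA, the enzyme the compound is described as resisting, was under the floor on both arrays (5.28 and 2.99).

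DNA methylation genes moved in opposite directions, with 5 of 25 at least 2-fold lower, 3 higher and a median of -0.11. The maintenance methyltransferase DNMT1 stood at 9.48 log2 treated and 11.38 Control (3.73-fold lower) and UHRF1, which guides it to replicated DNA, at 8.09 and 10.09 (4.00-fold lower). The chromatin remodeller HELLS and its activator CDCA7 were at least 1.83-fold and 2.88-fold lower, and CDCA7L differed by -2.42 log2. DNMT3A, a de novo methyltransferase, was at least 2.71-fold higher (9.80 treated, 7.14 Control), and DNMT3B differed by -0.58. Polycomb genes were near level (24 genes, 1 higher and 3 lower, median -0.08), with the histone methyltransferase EZH2 at least 2.26-fold lower.

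Germ cell and cancer-testis genes were mostly silent on both arrays. Of 61 measured, 54 were under the floor on both, 11 passed 2-fold upward, 5 of them above the floor when treated, and 2 downward, and the median of 0.18 compares with 1.44 in SKM1, 0.72 in HL60 and 0.53 in K562. The germ cell RNA-binding gene DAZL stood at 9.00 log2 treated and 4.14 Control, at least 1.55-fold higher. PRAME, a tumour antigen, was at least 2.87-fold higher, and the meiotic cohesin REC8 was at 10.00 and 8.74. DCAF4L1 (8.10 treated, 3.94 Control) and HORMAD1 (8.22 and 5.64) passed the treated floor but gave no bound above 1.

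Growth and metabolism genes differed by list. Of 42 genes of ribosome biogenesis and the MYC network 21 were at least 2-fold lower (50.0%) and 2 higher, with a median of -0.98. The transcription factor MYC stood at 11.51 log2 treated and 13.99 Control (5.57-fold lower), the RNA polymerase subunit POLR1C was 4.53-fold lower, and WDR74 and GPATCH4 4.01-fold and 3.71-fold. Cholesterol and fatty acid synthesis genes were near level in MDSL (2 of 30 higher, 2 lower, median -0.14), against medians of -1.04 in SKM1 and -1.15 in HL60. TMEM97, a sterol-regulated membrane protein, was the exception, at least 6.92-fold lower. Oxidative phosphorylation (0 of 24 higher, 1 lower, median 0.01) and glycolysis (4 of 22 higher, 18.2%, and 2 lower, 9.09%, median -0.06) had no common direction. The glucose transporter SLC2A3 was at 15.16 treated and 12.16 Control (8.05-fold), and hexokinase HK1 was at least 2.17-fold higher while HK2 was 2.94-fold lower. Lysosomal genes had 5 of 39 higher (12.8%) and a median of 0.08, with the protease CTSD at 1.29 and the fucosidase FUCA1 at 1.78. Metallothioneins had 2 of 11 higher (18.2%) and a median of 0.59, with MT2A at 0.84.

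Secreted and inflammatory genes were higher in single members. Of 39 chemokines and cytokines 10 passed 2-fold upward (25.6%) and 0 downward (median 0.53). Treated levels were above the floor for 7 of the 10, and 28 of the 39 were under it on both arrays. The monocyte chemoattractant CCL2 stood at 12.32 log2 treated and 5.78 Control, at least 15.5-fold higher, CCL23 was at least 3.32-fold higher and the macrophage growth factor CSF1 was at 11.25 and 9.43. In the NF-kB list 5 of 22 were at least 2-fold higher (22.7%, median 0.27), with TNFAIP2 at 2.49 and the feedback inhibitor TNFAIP3 at 1.62. SKM1 and HL60 had medians of 1.12 and 1.04. Complement and coagulation genes had 11 of 34 higher (32.4%), 7 of them above the floor when treated, and a median of 0.17. The complement regulators CD55 and CR1 were at 16.25 and 14.53 treated and 14.15 and 11.91 Control, and the anticoagulant PROS1 was at least 2.34-fold higher. Extracellular matrix genes (4 of 38 higher, 31 under the floor on both arrays) had CILP, COL14A1, COL6A1 (at least 1.05-fold) and the protease inhibitor TIMP1 (1.41 log2) as the members past 2-fold. The vitamin D receptor VDR was at 12.56 and 10.60.

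Markers of other cell types were largely dark. Of 12 epithelial markers 11, of 15 fibroblast and endothelial markers 12, of 11 neural markers 11, of 18 T and NK markers 14 and of 11 B cell markers 9 were under the floor on both arrays. PECAM1, shared by endothelium, platelets and leukocytes, stood at 13.43 log2 treated and 10.97 Control, and the T cell adhesion gene CD2 at 8.53 and 5.81, at least 1.12-fold higher. The collagen COL1A1 (5.10 treated, 5.33 Control) and the proteoglycan DCN (4.95 and 5.11), both made by fibroblasts, and the endothelial cadherin CDH5 (4.23 and 4.86) were under the floor. The 3 members of that list above it on both arrays were PECAM1, the collagen COL1A2 (9.13 treated, 9.34 Control) and the TGF-beta co-receptor ENG (13.76 and 13.25).

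MDSL was set against the other lines to see where it differed. Of its 1170 higher genes, 443 were also at least 2-fold higher in SKM1, which is 37.86% of the MDSL and 35.3% of the SKM1 list. HL60 shared 451 (38.55% of the MDSL and 25.03% of the HL60 list) and K562 218 (18.63% and 24.41%). Of the 864 lower genes, SKM1 shared 281 (32.52% of the MDSL and 35.52% of the SKM1 list), HL60 331 (38.31% and 16.87%) and K562 104 (12.04% and 15.25%). In the other lines 7.1% (SKM1), 10.2% (HL60) and 5.05% (K562) of all genes were at least 2-fold higher, and 4.47%, 11.1% and 3.86% lower, in that order of lines. Across genes the MDSL difference had Pearson's r of 0.46 with SKM1, 0.35 with HL60 and 0.21 with K562, over 17687 genes that are not independent replicates. At least 2-fold higher in MDSL and in 0 of the other lines were 484 genes (41.37%), and 75 were so in all 3 others. Of the lower genes 391 (45.25%) were past 2-fold in 0 others and 40 in all 3.

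**Figure D3:**
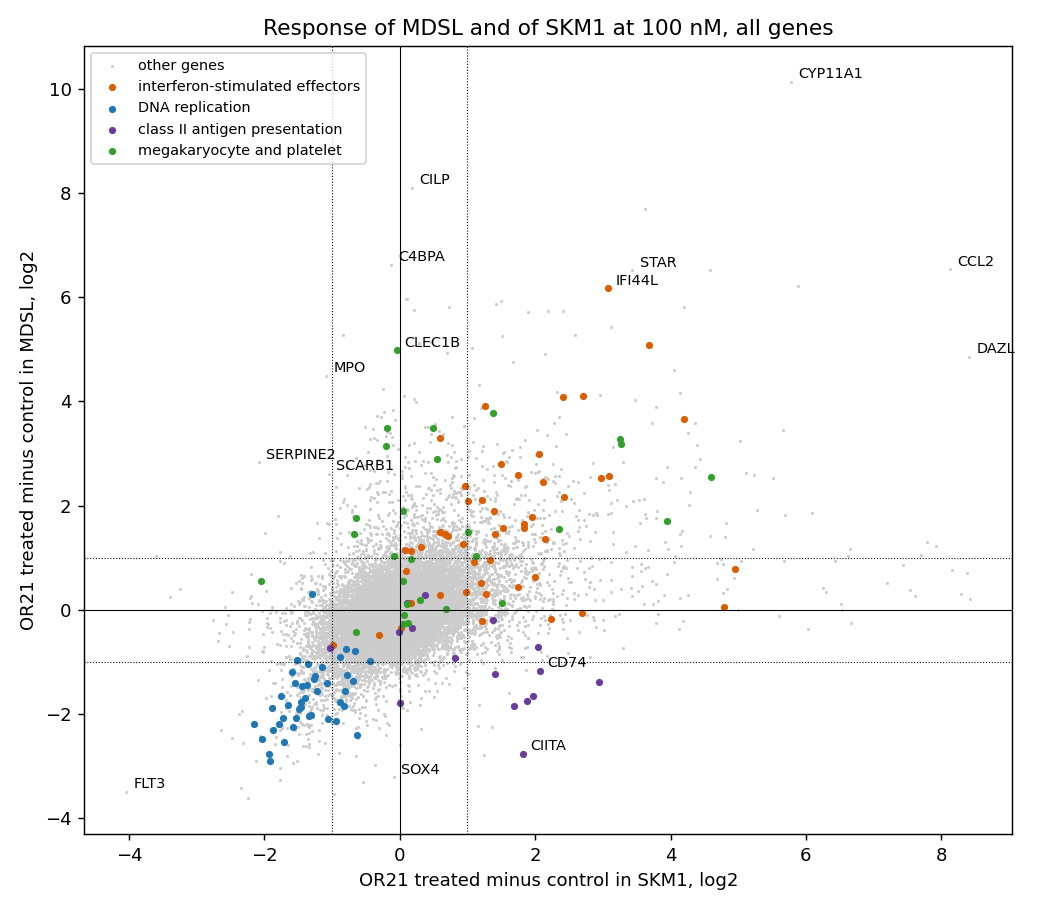
Difference OR21-treated minus Control in MDSL (vertical, log2) against the same in SKM1 (horizontal, log2), both at 100 nM, 1 point per gene, 4 lists in colour, dotted lines at 2-fold. DNA replication genes lie mostly low in both lines and interferon effectors mostly high in both, while 7 class II genes are past 2-fold low in MDSL and past 2-fold high in SKM1.

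The difference itself was tested gene by gene, MDSL response minus the mean response of the other 3 lines, with limma on 8 arrays, which takes the spread from the other lines and assumes that the lone MDSL response varies like theirs. At an adjusted p of 0.05 over 17687 genes 0 passed (0%), and 677 had an unadjusted p under 0.05. The smallest adjusted p was that of CILP, with a contrast of 8.07 ± 0.43 log2 (SE, adjusted p = 0.0576), and next came C4BPA, at 6.73 ± 0.42 (adjusted p = 0.0703), and MPO, at 5.52 ± 0.42 (adjusted p = 0.131). Scaled to the positive controls, 1 gene passed. CLEC1B had a contrast of 5.22 (adjusted p = 0.161) and TGM5 of 5.47 (adjusted p = 0.163). USP18 had 4.87 (adjusted p = 0.394), SCARB1 3.80 (adjusted p = 0.412), HBA1 4.70 (adjusted p = 0.416) and SOX4 -2.96 (adjusted p = 0.489). CIITA had -3.50 (adjusted p = 0.833) and CYP11A1, whose response also varied among the other lines, 7.98 (adjusted p = 0.999). The contrasts take levels under the floor as they are. The MDSL Control was under the floor for CILP, C4BPA, CLEC1B, TGM5, USP18, HBA1 and CYP11A1, so their contrasts depend in part on background. Counted from the floor, the MDSL differences of these genes were smaller, as given above. For CILP and CLEC1B every array of the other lines was also under the floor, so the responses they were set against are background. All genes named here were chosen after their values were seen, and none of their MDSL responses is shown to differ from those of the other lines. Line and dose cannot be told apart for HL60 and K562.

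CpG density of the promoter window was compared with the response, since the compound acts on CpG methylation. Among genes whose Control was under the floor, the share at least 2-fold higher with the treated array above the floor was 2.91%, 2.91%, 2.87% and 2.71% in 4 classes of windows, in the order of 0 to 9, 10 to 22, 23 to 32 and 33 to 69 CpG. That share was alike in the 4 classes. Among genes measurable in the Control, 16.2% of the class poorest in CpG were at least 2-fold higher, against 5.42%, 6.06% and 8.11% in the classes of more CpG, and 11.1%, 9.69%, 8.91% and 8.37% were at least 2-fold lower. Methylation itself was not measured.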

How the data were processed

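Biotin-labelled total RNA had been hybridised to 1 array per sample, per the labels. The deposited values are linear intensity values per probe set; the software, summarisation and normalization behind them are not given in the sources used here. They were converted to log2 with nothing added. Of 24351 probe sets, 17709 had 1 gene symbol in the platform annotation, 0 had several and 6642 were not listed there; of 20 genes with several probe sets the one with the highest mean was kept, leaving 17687 genes.

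A difference is treated minus Control, described by size with no test. MDSL was tested against the other 3 lines with limma 3.58.1 in R 4.3.3 (8 arrays, cell line as block, treatment and its interaction with MDSL, 2 residual degrees of freedom, Benjamini-Hochberg adjustment over all genes). On simulated data 49 of 100 genes shifted by 4 log2 and 95 of 100 shifted by 8 were called, with 10 unchanged ones. The simulated spread was drawn from the fit's own estimate and was alike in every line. Those counts therefore do not say how often real shifts of these sizes would be called. Tables were handled with pandas 2.3.3.

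The members and the 44 gene lists (1303 entries, 130 not measured) were chosen with earlier results of these data known. Genes named are the 20 largest differences each way among genes reaching the array median, up to 6 per list, and a fixed few; others named because a count was small were chosen after their values were seen. The floor was also chosen after seeing the data, because the array's own background probe sets gave an unstable median. With 1 array per condition, the number of arrays limits the precision. Promoter windows came from RefSeq (GRCh38.p14) and matched 14250 genes by Entrez gene identifier.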

Additional observations from a re-analysis of the deposited data

Results flagged for a closer look

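For 12 named genes the difference OR21-treated minus Control in MDSL was past 2-fold, with at least 1 array above the floor, and opposite to a difference past 2-fold in SKM1. With 1 array per condition MDSL against SKM1 was not tested, and 0 of the 12 passed the limma test of MDSL against the mean of the other 3 lines at an adjusted p of 0.05.

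Class II antigen presentation held 6 of them. CIITA differed by -2.77 log2 in MDSL and 1.82 in SKM1, HLA-DRB1 by -1.85 and 1.69, HLA-DPB1 by -1.76 and 1.88, and HLA-DPA1 by -1.65 and 1.98. HLA-DRA differed by -1.24 in MDSL and 1.40 in SKM1, and CD74 by -1.18 and 2.08. In HL60 HLA-DRB1 (-1.10) and CD74 (-0.19) were also lower, while CIITA (0.03), HLA-DPB1 (0.41), HLA-DPA1 (0.47) and HLA-DRA (0.41) were not. CIITA was under the floor on both SKM1 arrays.

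RAB7B, a small GTPase of lysosomes, differed by -2.79 log2 in MDSL, 1.25 in SKM1 and 2.95 in HL60. MPO differed by 4.49 in MDSL, -1.09 in SKM1 and -1.04 in HL60. The lipoprotein receptor SCARB1 differed by 2.61 log2 in MDSL, against -1.04 in SKM1 and -1.61 in K562. The protease inhibitor SERPINE2 differed by 2.83 in MDSL and -2.08 in SKM1, the desaturase FADS2 by 1.09 in MDSL and -1.32 in SKM1, and the glycolytic enzyme ALDOC by 1.67 in MDSL and -1.08 in SKM1. K562 went the same way as MDSL for FADS2 (1.58), ALDOC (1.10) and SERPINE2 (0.61). HL60 differed by -1.12, -0.20 and 0.53 for these genes, in that order. The MDSL Control of ALDOC was under the floor, and counted from it ALDOC was at least 1.81-fold higher.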

How the results depend on the processing

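No paired analysis was possible because each condition of a line has 1 array and the labels give no replicate numbers; the line itself is the block. The 1170 higher and 864 lower genes became 2417 and 367 with arrays scaled to the positive controls, 630 and 497 with differences taken from the floor, 2553 and 2640 at 1.5-fold, and 338 and 99 at 4-fold. Quantile normalization (1135 and 960), median centring (1078 and 991), 32 added before log2 (906 and 619), dim genes left out (1080 and 788) and scaling to the hybridisation spikes (1281 and 750) stayed within 1.5 times. Scaled to the positive controls, genes shared with SKM1 numbered 926 higher and 118 lower, with HL60 1051 and 108, and with K562 534 and 27. K562 shared 165 lower genes with median centring and 145 higher ones with 32 added, and HL60 shared 283 higher ones with spike scaling. The positive control scaling and the floor were added after seeing the data. In the limma test of MDSL against the other lines 1 gene passed with positive control scaling (smallest adjusted p = 0.0443). Leaving out SKM1, HL60 or K562 gave 0 to 0 genes, with 657, 671 and 822 at an unadjusted p under 0.05, and without the cell line block 0 passed, with 221 unadjusted. Of 308 recomputed list medians 2 moved by more than 1.5-fold, both of the globin list (1.73 with 32 added, 3.30 with dim genes left out). Of 1905 values of named genes 31 moved by as much. A reversal was counted only for list medians past 1.5-fold and gene differences past 2-fold, and 0 were found. The scalings moved the median of all genes by at most 0.39 log2, so that 0 says little. Medians near 0 did change sign, as with quantile normalization for steroid synthesis (0.04 to -0.01) and oxidative phosphorylation (0.01 to -0.12). Levels under the floor carry no order, which limits 10428 genes.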
